A study of Mus musculus with 6 samples.

Results

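Box H/ACA small nucleolar RNAs (the Snora genes) and small Cajal body RNAs (the Scarna genes) were examined in RNA immunoprecipitation sequencing (RIP-seq) of mouse cerebellar granule cells (GCs). The group holds every row of the gene table whose identifier belongs, in the GENCODE annotation of GRCm38, to a gene named Snora or Scarna followed by a digit with the biotype snoRNA or scaRNA. It has 51 rows (42 Snora and 9 Scarna) of 52550 in the table. The name Snora43 stands on 2 rows, and so does Snora16a, so these are given with their gene identifiers. There were 2 libraries from anti-YTHDF1 RIP, 2 from anti-YTHDF2 RIP and 2 from Input, the RNA of the lysate without selection. All 6 came from the cerebellum of wildtype C57BL/6 mice at postnatal day 8, with no treatment or allele that differed between groups. The text of the study gives a span of days that closes with that day. Cells were freed with trypsin and lysed, and the lysate stood overnight with beads that carried 1 of the 2 antibodies. The methods speak in general of independent biological replicates, but neither they nor the labels say what sets replicates 1 and 2 of the RIP-seq apart, and the p-values may therefore reflect technical spread alone. The design text describes each replicate as holding Input and RIP samples, without saying what same-numbered libraries share. A library from a nonspecific antibody was not analysed here.

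H/ACA RNAs fold into a pair of hairpins joined by a hinge, which carries the H box, and end in a short tail with the ACA box. Bound by dyskerin (Dkc1), Nhp2, Nop10 and Gar1, they select the uridines of ribosomal RNA that are converted to pseudouridine in the nucleolus. Small Cajal body RNAs do the same kind of work on the spliceosomal snRNAs in Cajal bodies, and many of them carry C and D boxes, which guide 2'-O-methylation, in place of or together with H/ACA hairpins. Most vertebrate members of both classes are trimmed out of introns of host genes and stay in the nucleus, whereas YTHDF1 and YTHDF2 are known as cytoplasmic proteins that bind N6-methyladenosine in mRNA. The libraries therefore hold, beside the mRNAs they were made for, a measurement of small nuclear guide RNAs in material selected with antibodies to cytoplasmic readers.

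The annotated Snora members were 121 to 205 nt long (median 132.5 nt) and the Scarna members 70 to 414 nt. The class was legible in the sequences. ACA followed by exactly 3 bases at the 3' end was found in 35 of 42 Snora members (83.3%), and ANANNA in the middle stretch of the RNA (35% to 65% of its length) in 39 (92.9%). Only the strand of the RNA was searched. Both were found in 78.6% of the Snora members, against 8.46% of 2493 other annotated genes of 121 to 205 nt, of which 9.31% had the ACA tail and 64.6% the middle motif. The H box letters alone are thus common in RNAs of this length. ATGATGA or GTGATGA (C box) together with CTGA in the last 15 bases (D box) was found in 0 Snora and 5 Scarna members, namely Scarna2, Scarna6, Scarna9, Scarna10 and Scarna17. The RNAs on which the comparisons turn are printed 5' to 3' from the GENCODE M21 transcripts on GRCm38 with T for U, so that the reader can see which of them are H/ACA and which are C/D guides. Capitals mark the H box and the ACA in the Snora RNAs, the ACA in Scarna13, and the C box and last D box in Scarna2 and Scarna9. Scarna2 is shown by its last 100 nt only. Snora73b, whose values take a different course from those of its near twin Snora73a, is given after it.
Scarna2 (chr3:108554338-108554437, minus strand, the 3' end of an RNA of 414 nt): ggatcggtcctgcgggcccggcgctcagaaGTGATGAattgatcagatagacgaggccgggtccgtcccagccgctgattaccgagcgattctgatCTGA
Scarna9 (chr9:15326264-15326333, minus strand): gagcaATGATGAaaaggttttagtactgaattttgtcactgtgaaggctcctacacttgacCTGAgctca
Scarna13 (chr12:105031075-105031349, minus strand): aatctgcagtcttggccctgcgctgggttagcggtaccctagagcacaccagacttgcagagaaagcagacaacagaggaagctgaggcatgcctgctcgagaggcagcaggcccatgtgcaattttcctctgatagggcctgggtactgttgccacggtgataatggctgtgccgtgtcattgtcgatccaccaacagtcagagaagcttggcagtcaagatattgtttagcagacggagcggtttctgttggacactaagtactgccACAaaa
Snora15 (chr5:129794546-129794676, plus strand): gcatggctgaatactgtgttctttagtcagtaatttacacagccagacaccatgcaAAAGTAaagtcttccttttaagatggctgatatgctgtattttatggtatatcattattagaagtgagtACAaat
Snora21 (chr11:97781639-97781775, minus strand): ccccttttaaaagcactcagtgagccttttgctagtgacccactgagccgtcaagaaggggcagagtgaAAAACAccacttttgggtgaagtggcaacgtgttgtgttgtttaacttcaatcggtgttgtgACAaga
Snora34 (chr15:98519716-98519853, minus strand): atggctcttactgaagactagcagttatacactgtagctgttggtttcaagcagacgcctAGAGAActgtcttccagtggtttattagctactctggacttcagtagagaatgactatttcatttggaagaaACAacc
Snora23 (chr7:110046364-110046547, plus strand): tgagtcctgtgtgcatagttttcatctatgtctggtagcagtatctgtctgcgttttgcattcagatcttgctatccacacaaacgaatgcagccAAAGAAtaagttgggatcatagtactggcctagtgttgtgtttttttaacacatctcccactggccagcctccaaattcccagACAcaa
Snora73a (chr4:132352775-132352979, minus strand): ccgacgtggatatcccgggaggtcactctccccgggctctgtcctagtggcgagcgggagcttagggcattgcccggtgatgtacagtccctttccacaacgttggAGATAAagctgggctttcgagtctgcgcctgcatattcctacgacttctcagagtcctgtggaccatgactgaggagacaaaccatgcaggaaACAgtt
Snora73b (chr4:132352322-132352526, minus strand): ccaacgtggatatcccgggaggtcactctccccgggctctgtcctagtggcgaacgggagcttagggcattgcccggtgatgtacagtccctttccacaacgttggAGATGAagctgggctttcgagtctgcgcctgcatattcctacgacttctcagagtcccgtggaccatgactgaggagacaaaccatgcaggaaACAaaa

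Values are FPKM, fragments scaled to the length of the RNA and to the number of mapped fragments, and the files give no counts. By the spacing of low values, 1 fragment on an RNA of 131 nt corresponded to between 0.15 and 0.42 FPKM depending on the library. By that estimate 74 of the 210 values of tested members came from under 10 fragments and 14 from under 1. Between 9503 and 12627 genes reached 1 FPKM in a library. Mitochondrially encoded RNAs held 0.607% to 3.68% of the summed FPKM in the YTHDF1 RIP and 0.0892% to 0.886% in the YTHDF2 RIP, against 18% to 18.4% in Input. Granule cell markers summed to 283 to 420 FPKM in the YTHDF1 RIP and 570 to 698 FPKM in the YTHDF2 RIP, against 312 to 419 FPKM in Input, and markers of Purkinje cells, interneurons, glia, vessels and blood were all above 0. The part of these shifts in the results was not tested. In bulk libraries a change in the RNA of each cell and a change in the number of cells that hold it cannot be told apart.

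A pair of Cajal body RNAs held a large share of the members' signal. All members together took 0.0692% and 0.225% of the summed FPKM in the YTHDF1 RIP, 0.151% and 0.634% in the YTHDF2 RIP, against 0.0536% and 0.0593% in Input. Scarna2 and Scarna10 alone made up 48.6% and 71.5% of the members' sum in the YTHDF1 RIP, 71.2% and 84.0% in the YTHDF2 RIP, against 42.9% and 82.8% in Input. Without this pair the members summed to 238 and 325 FPKM in the YTHDF1 RIP and 269 and 488 FPKM in the YTHDF2 RIP, against 261 and 88.7 FPKM in Input. By ratio the Input libraries thus lay further apart than the libraries of either RIP group. Members at 1 FPKM or more numbered 36 and 34 in YTHDF1 RIP libraries, 33 and 28 in YTHDF2 RIP libraries and 32 and 19 in Input libraries. Of the 51 members, 42 were above 0 in all 6 libraries, and 15 of the 306 values were listed at 0.

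Scarna10, known in human cells as U85, a guide for the U5 snRNA that joins C/D and H/ACA elements, was the most abundant member of Input. It stood at 130 and 392 FPKM in the YTHDF1 RIP and 123 and 313 FPKM in the YTHDF2 RIP, against 182 and 408 FPKM in Input. Replicate 2 was the higher one in every group and the groups overlapped, so the RNA with the highest Input level did not separate RIP from Input. Among the H/ACA snoRNAs the highest means belonged to Snora23, Snora15, Snora31, Snora68 and Snora57. Snora57 stood at 14.5 and 8.84 FPKM in the YTHDF1 RIP and 11.7 and 7.36 FPKM in the YTHDF2 RIP, against 13.4 and 2.65 FPKM in Input, and Snora31 at 25.7 and 6.83 FPKM in the YTHDF1 RIP and 15.9 and 5.38 FPKM in the YTHDF2 RIP, against 41.9 and 3.89 FPKM in Input. Both overlapped between groups, with replicate 1 above replicate 2 throughout.

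**Figure D1:**
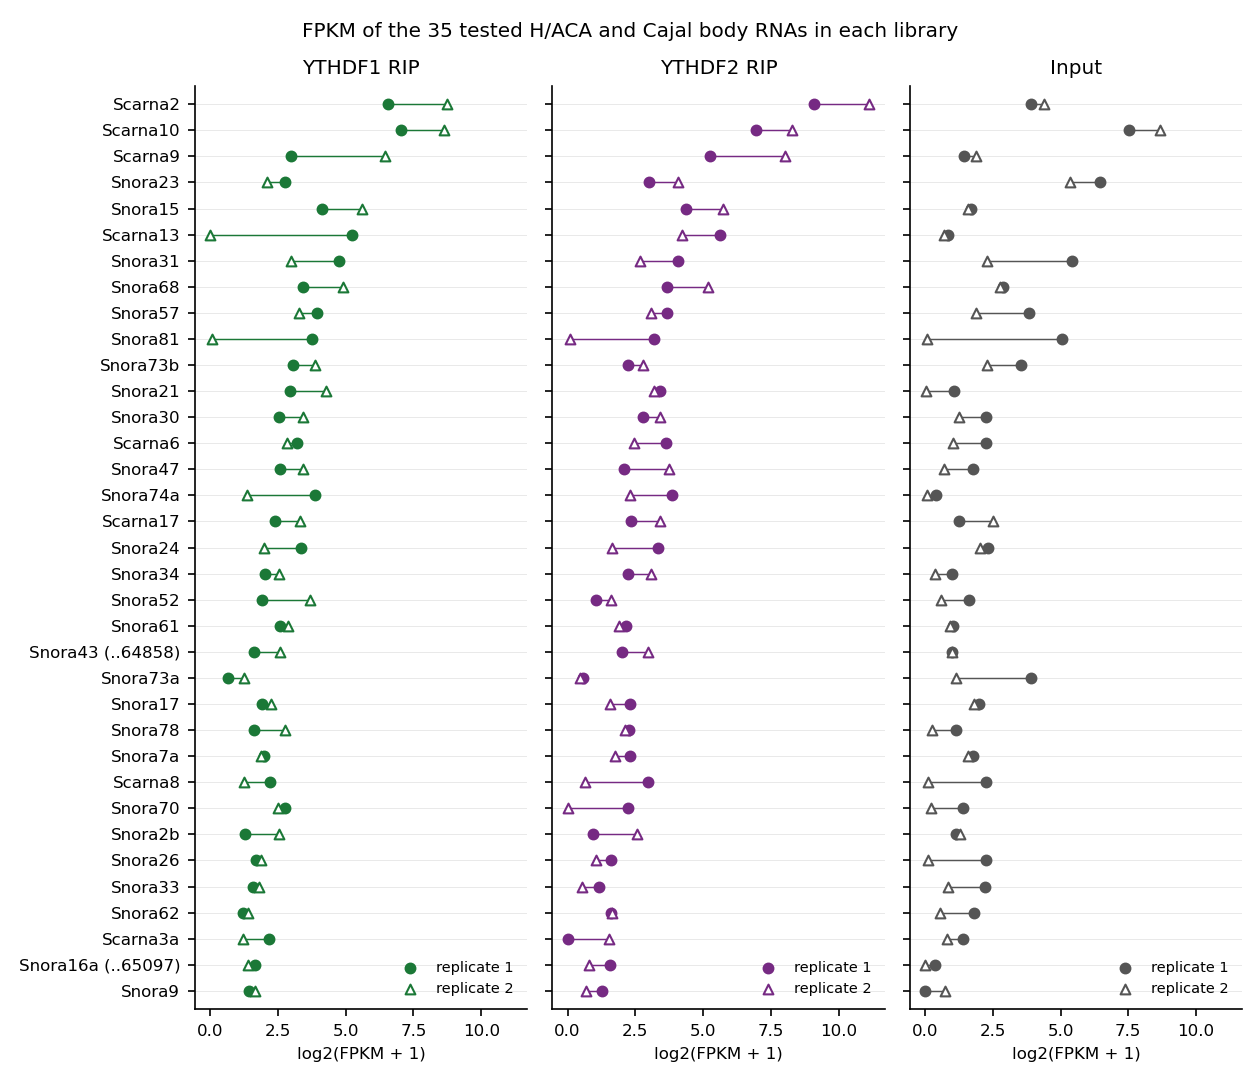
Level of each of the 35 tested members, as log2(FPKM + 1), in the YTHDF1 RIP, YTHDF2 RIP and Input libraries, where filled circles are replicate 1, open triangles are replicate 2 and a line joins the 2 libraries of a group. Scarna2 and Scarna9 sit further to the right in both RIP panels than in the Input panel, Snora23 sits further to the left in them, and Snora81 spans from 32.2 to 0.0662 FPKM within Input.

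The spread between replicates was wide for this class. Of the 35 tested members, 14 (40.0%) in the YTHDF1 RIP, 18 (51.4%) in the YTHDF2 RIP and 17 (48.6%) in Input lay more than 1 log2 unit apart between the 2 libraries of the group. Over all 11057 tested genes the shares were 19.1% and 24.4% in the RIP groups and 2.67% in Input, so the members stood out most in Input. Replicate 1 was the higher library for 13 of 35 members in the YTHDF1 RIP and for 19 in the YTHDF2 RIP, against 28 in Input. Only Input thus leaned clearly to 1 side. These counts and those that follow were not taken over all tested genes, so they describe these members only. There were 11 members with replicate 1 above replicate 2 in all 3 groups, among them Snora81, Snora31, Snora57, Snora74a, Scarna13, Scarna6 and Scarna8, and 6 with replicate 2 above replicate 1 in all 3, namely Scarna2, Scarna9, Scarna10, Scarna17, Snora2b and Snora43 (ENSMUSG00000064858). Snora81, a guide in the gene Eif4a2, is the plainest case, with 12.5 and 0.0554 FPKM in the YTHDF1 RIP and 8.18 and 0.0779 FPKM in the YTHDF2 RIP, against 32.2 and 0.0662 FPKM in Input. In every group its replicate 2 value lay below the level of 1 fragment by the spacing of low values.

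**Figure D2:**
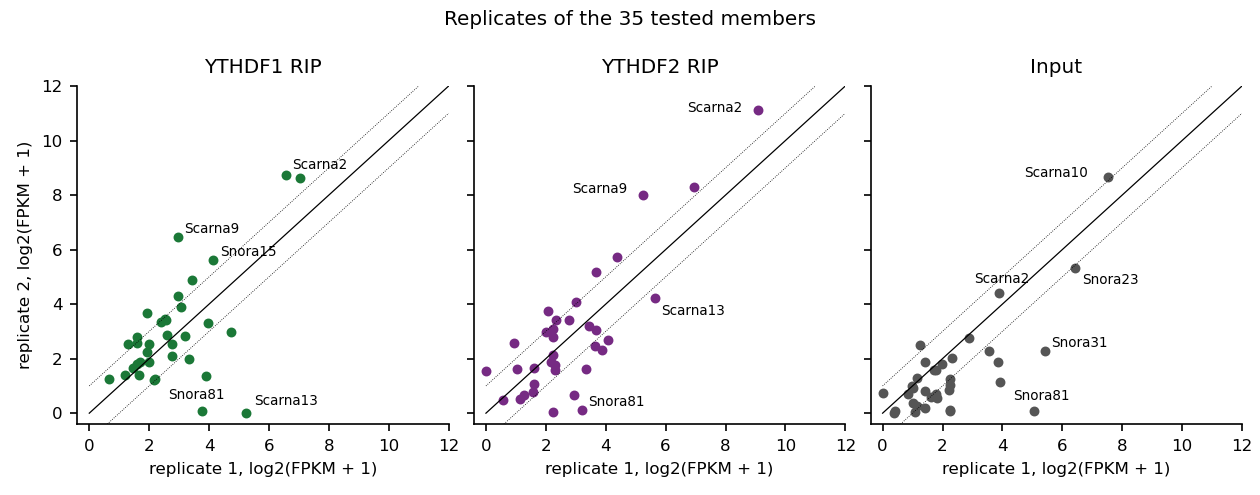
Replicate 2 against replicate 1 for the 35 tested members, both axes log2(FPKM + 1), with the line of equality and dotted lines 1 log2 unit to either side. Points outside the dotted lines number 14 in the YTHDF1 RIP, 18 in the YTHDF2 RIP and 17 in Input, and most Input points lie below the line of equality.

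In the YTHDF1 RIP, Snora15, Snora21 and Snora61 were higher than in Input and Snora23 was lower. Snora15 had 16.7 and 48.2 FPKM in the YTHDF1 RIP, against 2.26 and 2.00 FPKM in Input. Snora21, whose human counterpart is a guide for 28S rRNA, had 6.77 and 18.5 FPKM in the YTHDF1 RIP, against 1.11 and 0.0182 FPKM in Input. Its value in Input replicate 2, which both RIP comparisons use, lay below the level of 1 fragment by the spacing of low values. Snora61, 1 of the guides encoded in the noncoding gene Snhg12, had 5.05 and 6.25 FPKM in the YTHDF1 RIP, against 1.03 and 0.894 FPKM in Input. In all 3 both RIP libraries lay above both Input libraries, and Snora61 had the smallest spread. Snora23, which lies in an intron of the nuclear import gene Ipo7 and whose human counterpart is also a 28S guide, moved the other way, with 5.83 and 3.33 FPKM in the YTHDF1 RIP, against 85.8 and 39.5 FPKM in Input.

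On the log2(FPKM + 1) scale, which understates changes of low values, the differences from Input by limma with Benjamini-Hochberg adjustment were 3.24 for Snora15 (SE 0.63, adjusted p = 0.0474), 3.07 for Snora21 (SE 0.54, adjusted p = 0.0404), 1.75 for Snora61 (SE 0.31, adjusted p = 0.0404) and -3.45 for Snora23 (SE 0.57, adjusted p = 0.0365). Thus 3 of 35 tested members were higher and 1 lower, where 0.624% of all tested genes were higher and 1.94% lower. Of the 3, Snora21 and Snora61 averaged under 1 FPKM in Input and were tested only because of their RIP levels, so the share of members called is not evidence about the class. The median member changed by 1.09, beside 0.05 over all tested genes, and 30 of 35 members had a positive change (30 to 32 under the other scalings of the libraries). Both YTHDF1 RIP libraries were above both Input libraries for 18 members (51.4%, beside 33.8% of all tested genes) and below both for 1 (2.86%, beside 30.2%). The filter on low genes favoured these figures too. Of the 35 members 9, and of the 11057 tested genes 1519, averaged under 1 FPKM in Input. Without the filter the median of all members was 0.52. Leaving out any of the 4 libraries of the comparison leaves a lone library in a group. Such a fit cannot decide whether the 4 calls hold, but none of the 4 changed direction. The changes then ranged from 2.5 to 3.98 for Snora15 and from 2.41 to 3.73 for Snora21. For Snora61 they ranged from 1.62 to 1.89, and for Snora23 from -4.0 to -2.9. The calls were lost when each library was scaled to the same FPKM sum, and in both RIP comparisons when the filter on low genes was dropped. In these fits 0 of all genes passed. With the replicate number as a block, 14 members were higher and 1 lower in the YTHDF1 RIP, where 571 of all 11057 tested genes were higher and 861 lower.

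Members with large but uneven changes did not pass without the replicate block. Scarna2, whose human counterpart guides methylation of the U2 snRNA and is transcribed from its own promoter, had 94.3 and 425 FPKM in the YTHDF1 RIP, against 13.9 and 20.1 FPKM in Input (log2 change 3.5, SE 0.93, adjusted p = 0.0798 by limma). Scarna9, a C/D guide that also acts on U2 in human cells, had 6.83 and 87.5 FPKM in the YTHDF1 RIP, against 1.69 and 2.70 FPKM in Input (log2 change 3.06, SE 1.22, adjusted p = 0.162 by limma). For both the gap between the YTHDF1 RIP libraries was itself large. Scarna13, the RNA called U93 in humans, which has tandem H/ACA domains, stood at 36.4 FPKM in YTHDF1 RIP replicate 1 and was listed at 0 in replicate 2, against 0.793 and 0.614 FPKM in Input. Snora74a had 13.8 and 1.60 FPKM in the YTHDF1 RIP, against 0.341 and 0.0463 FPKM in Input (log2 change 2.39, SE 0.82, adjusted p = 0.126 by limma). With the replicate block Scarna2, Scarna9 and Snora74a passed in the YTHDF1 RIP (adjusted p = 0.00633, 0.00987 and 0.00697 by limma). Scarna13 and Snora74a averaged under 1 FPKM in Input and were tested only because of their RIP levels.

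In the YTHDF2 RIP, the Cajal body RNAs Scarna2 and Scarna9 and the snoRNAs Snora15, Snora21 and Snora34 were higher than in Input, and Snora23 was again lower. Scarna2 had 542 and 2250 FPKM in the YTHDF2 RIP, against 13.9 and 20.1 FPKM in Input, a ratio of group means of 82.0. Scarna9 had 37.0 and 256 FPKM in the YTHDF2 RIP, against 1.69 and 2.70 FPKM in Input, a ratio of 66.7. These are the C/D type RNAs printed above, not H/ACA guides. Snora15 had 19.6 and 51.7 FPKM in the YTHDF2 RIP, against 2.26 and 2.00 FPKM in Input. Snora21 had 9.74 and 8.09 FPKM in the YTHDF2 RIP, against 1.11 and 0.0182 FPKM in Input, and Snora34, a guide in an intron of Kansl2, had 3.75 and 7.45 FPKM in the YTHDF2 RIP, against 1.01 and 0.285 FPKM in Input. For each of the 5 both RIP libraries lay above both Input libraries. Snora23 had 7.12 and 15.9 FPKM in the YTHDF2 RIP, against 85.8 and 39.5 FPKM in Input, again without overlap.

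By limma with Benjamini-Hochberg adjustment the log2 changes were 5.96 for Scarna2 (SE 0.93, adjusted p = 0.0147), 4.97 for Scarna9 (SE 1.22, adjusted p = 0.0339), 3.40 for Snora15 (SE 0.63, adjusted p = 0.0194), 2.75 for Snora21 (SE 0.54, adjusted p = 0.0216), 1.98 for Snora34 (SE 0.42, adjusted p = 0.0246) and -2.34 for Snora23 (SE 0.57, adjusted p = 0.0326). That is 5 of 35 members higher and 1 lower, where 11.9% of all tested genes were higher and 6.66% lower, so the members' share of higher calls (14.3%) was near that of all genes. The median member changed by 0.61 (0.26 over all tested genes) and 27 of 35 changes were positive (25 to 30 under the other scalings). Both YTHDF2 RIP libraries exceeded both Input libraries for 15 members (42.9%, beside 41.5% of all tested genes) and fell below both for 2 (5.71%, beside 24.9%), the pair being Snora23 and Snora73a. The filter on low genes favoured these figures as well, and without it the median of all members was 0.32. Scaling each library to the same FPKM sum gave 8 higher and 0 lower, where 2130 of all genes were higher and 222 lower. Leaving out a YTHDF2 RIP or Input library leaves a lone library in a group, so such a fit cannot decide whether the calls hold. The changes then ranged from 4.93 to 6.99 for Scarna2 and from 3.59 to 6.35 for Scarna9. For Snora15 they ranged from 2.72 to 4.08, for Snora21 from 2.23 to 3.28 and for Snora34 from 1.57 to 2.4. Snora23 ranged from -2.89 to -1.79. With the replicate number as a block, 15 members were higher and 2 lower, where 2177 of all 11057 tested genes were higher and 1172 lower. Snora21 and Snora34 averaged under 1 FPKM in Input and were tested only because of their RIP levels.

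**Figure D3:**
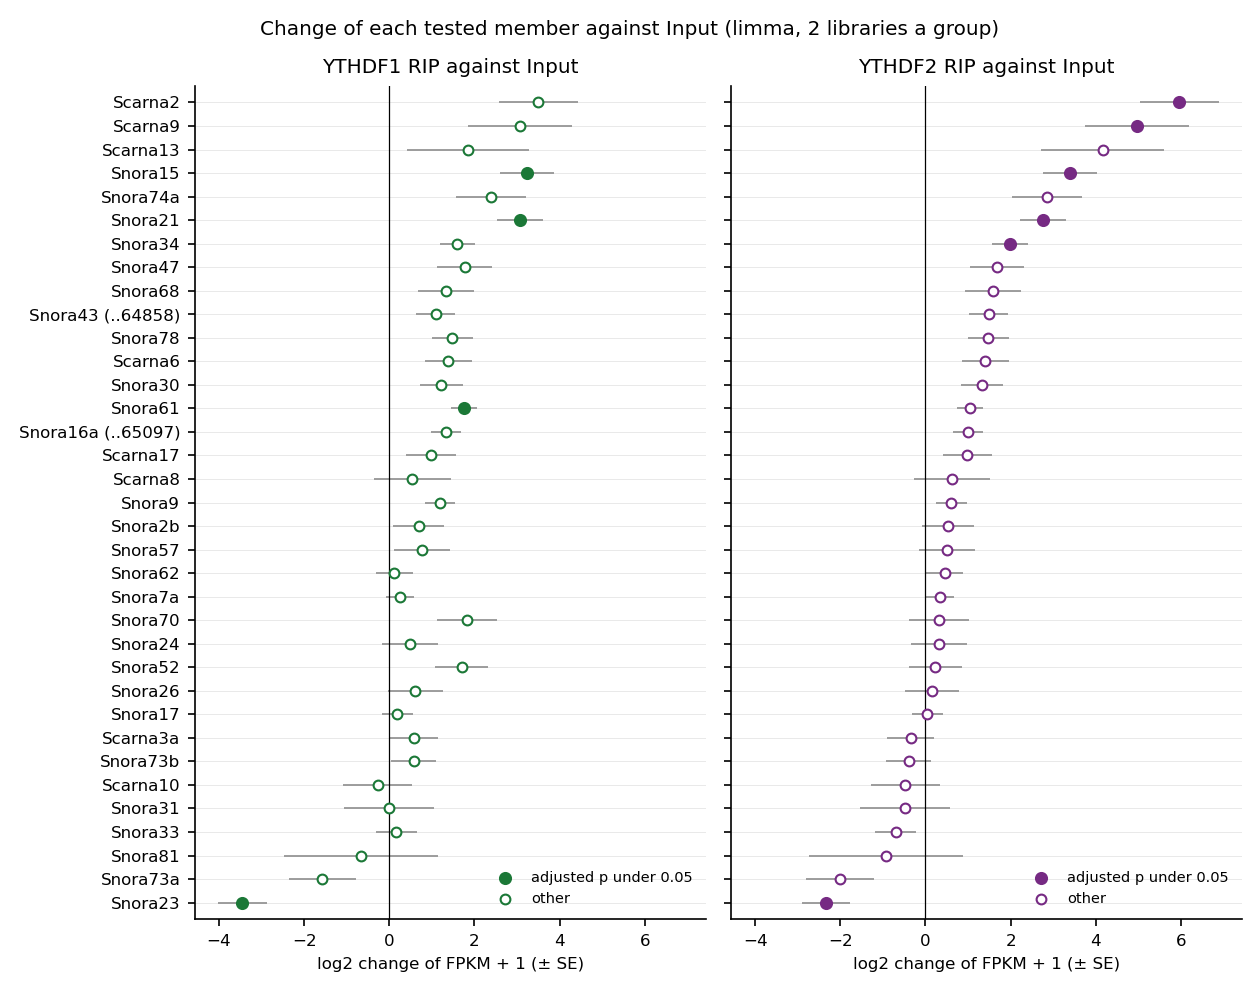
Log2 change of FPKM + 1 against Input with its standard error for each of the 35 tested members, in the YTHDF1 RIP and the YTHDF2 RIP, in the order of the YTHDF2 RIP changes and with filled points for an adjusted p under 0.05 by limma. Scarna2 and Scarna9 lead the YTHDF2 RIP at 5.96 and 4.97, and Snora23 is the lowest in both panels at -3.45 and -2.34.

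Scarna13 and Snora74a came close without passing. Scarna13 had 48.8 and 17.5 FPKM in the YTHDF2 RIP, against 0.793 and 0.614 FPKM in Input (log2 change 4.16, SE 1.44, adjusted p = 0.0799 by limma), and Snora74a had 13.6 and 3.97 FPKM in the YTHDF2 RIP, against 0.341 and 0.0463 FPKM in Input (log2 change 2.85, SE 0.82, adjusted p = 0.0509 by limma). Neither overlapped Input, and with the replicate block both passed (adjusted p = 0.00326 for Scarna13 and 0.00126 for Snora74a by limma). Both averaged under 1 FPKM in Input and were tested only because of their RIP levels, which favoured such results. The remaining tested Cajal body RNAs had lower mean levels in either RIP than Scarna2, Scarna9, Scarna10 and Scarna13. Scarna6, the human U88, had 8.25 and 6.13 FPKM in the YTHDF1 RIP and 11.4 and 4.45 FPKM in the YTHDF2 RIP, against 3.72 and 1.03 FPKM in Input, above both Input libraries in either RIP. Scarna17, which in humans guides methylation of the U4 and U12 snRNAs, had 4.25 and 9.09 FPKM in the YTHDF1 RIP and 4.03 and 9.60 FPKM in the YTHDF2 RIP, against 1.40 and 4.68 FPKM in Input. Scarna8, the human U92, had 3.59 and 1.39 FPKM in the YTHDF1 RIP and 6.76 and 0.577 FPKM in the YTHDF2 RIP, against 3.81 and 0.0718 FPKM in Input. Scarna3a had 3.52 and 1.33 FPKM in the YTHDF1 RIP, 1.89 FPKM in YTHDF2 RIP replicate 2 and was listed at 0 in replicate 1, against 1.66 and 0.764 FPKM in Input. Scarna17, Scarna8 and Scarna3a overlapped Input in either RIP. The 5 Scarna members with a C and a D box spanned log2 changes of -0.27 to 3.5 in the YTHDF1 RIP and -0.47 to 5.96 in the YTHDF2 RIP, with medians of 1.39 and 1.41 and 4 of 5 positive in either RIP, against medians of 1.09 and 0.50 for the 27 tested Snora members. The negative one was Scarna10, and the difference between the types was not tested.

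Several snoRNAs lay above Input in every RIP library without passing the test, and those named here passed in the YTHDF2 RIP with the replicate block. Snora68 had 9.75 and 28.7 FPKM in the YTHDF1 RIP and 11.7 and 35 FPKM in the YTHDF2 RIP, against 6.41 and 5.80 FPKM in Input. Snora30 had 4.81 and 9.84 FPKM in the YTHDF1 RIP and 5.89 and 9.59 FPKM in the YTHDF2 RIP, against 3.78 and 1.41 FPKM in Input. For Snora47, in Zbed3, the values were 4.97 and 9.79 FPKM in the YTHDF1 RIP and 3.22 and 12.5 FPKM in the YTHDF2 RIP, against 2.44 and 0.618 FPKM in Input. Each of these H/ACA guides kept replicate 2 above replicate 1 in both RIP groups and replicate 1 above replicate 2 in Input. Snora43 (ENSMUSG00000064858) had 2.05 and 4.98 FPKM in the YTHDF1 RIP and 3.04 and 6.88 FPKM in the YTHDF2 RIP, against 0.990 and 1.02 FPKM in Input. Snora78 had 2.04 and 5.86 FPKM in the YTHDF1 RIP and 3.76 and 3.36 FPKM in the YTHDF2 RIP, against 1.22 and 0.203 FPKM in Input. It averaged under 1 FPKM in Input and was tested only because of its RIP levels.

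The pair Snora73a and Snora73b (U17, needed for the processing of 18S rRNA rather than for a pseudouridine) shows how far near-identical members parted. Both are 205 nt long and lie within Snhg3, and they differ at 7 positions. Snora73a had 0.571 and 1.40 FPKM in the YTHDF1 RIP and 0.469 and 0.389 FPKM in the YTHDF2 RIP, against 14.2 and 1.19 FPKM in Input. Snora73b had 7.41 and 13.8 FPKM in the YTHDF1 RIP and 3.75 and 5.92 FPKM in the YTHDF2 RIP, against 10.7 and 3.83 FPKM in Input. Snora73a lay below both Input libraries in the YTHDF2 RIP (log2 change -2.01, SE 0.79, adjusted p = 0.108 by limma, and 0.0207 with the replicate block), while Snora73b overlapped Input in either RIP. The change of Snora73a rested on Input replicate 1, since without it the YTHDF2 RIP change was -0.62, and without Input replicate 2 it was -3.41. Reads of 1 copy could have been assigned to the other by the authors' counting, so neither value is certain alone. A near-identical gene (at least 90% identity over at least 80% of the RNA) exists for 17 of the 35 tested members, Snora21, Snora61 and Snora68 among them, while Scarna2, Scarna9, Snora15, Snora23 and Snora34 have none. The median change was 0.98 in the YTHDF1 RIP and 0.53 in the YTHDF2 RIP for members with such a copy, and 1.44 and 1.02 for the 18 without.

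Between the antibodies no member passed. By limma 0 of 35 were higher and 0 lower in the YTHDF2 RIP than in the YTHDF1 RIP, where 0.00904% of all tested genes were higher and 0.0% lower. An unadjusted p under 0.05 by limma was found for 2 members (5.71%), near the share of all tested genes (4.31%). The median member changed by -0.15 (0.22 over all tested genes). Both YTHDF2 RIP libraries were above both YTHDF1 RIP libraries for 3 members (8.57%, beside 21.6% of all tested genes), namely Scarna2, Snora23 and Snora62, and below both for 8 (22.9%, beside 8.09%), namely Snora70, Snora52, Snora73b, Snora33, Snora61, Snora9, Snora26 and Snora73a. Scarna2 had 542 and 2250 FPKM in the YTHDF2 RIP, against 94.3 and 425 FPKM in the YTHDF1 RIP (log2 change 2.46, SE 0.93, adjusted p = 0.864 by limma). The libraries of both groups lay more than 1 log2 unit apart from their replicate. Snora52, in the ribosomal protein gene Rplp2, had 1.06 and 2.07 FPKM in the YTHDF2 RIP, against 2.82 and 11.8 FPKM in the YTHDF1 RIP (log2 change -1.47, SE 0.62, adjusted p = 0.864 by limma). Snora70, in Rpl10, had 3.71 and 0.0233 FPKM in the YTHDF2 RIP, against 5.79 and 4.75 FPKM in the YTHDF1 RIP. Snora33, in Rps12, had 1.22 and 0.446 FPKM in the YTHDF2 RIP, against 2.00 and 2.51 FPKM in the YTHDF1 RIP. Snora70 in YTHDF2 RIP replicate 2 lay below the level of 1 fragment by the spacing of low values.

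Testing was limited to genes whose 6 libraries averaged 1 FPKM or more, which kept 27 Snora and 8 Scarna members and left out 16. Just inside it were Scarna3a (mean 1.53 FPKM), Snora16a (ENSMUSG00000065097, 1.13 FPKM) and Snora9 (1.09 FPKM), and just outside Snora69 (0.812 FPKM), Snora41 (0.594 FPKM) and Snora64 (0.516 FPKM). Snora9 had 1.72 and 2.16 FPKM in the YTHDF1 RIP and 1.41 and 0.598 FPKM in the YTHDF2 RIP, against 0 and 0.655 FPKM in Input, and Snora16a (ENSMUSG00000065097) had 2.19 and 1.63 FPKM in the YTHDF1 RIP and 1.98 and 0.714 FPKM in the YTHDF2 RIP, against 0.301 and 0 FPKM in Input. Members that were high only in the RIP libraries could pass this filter, so the counts above describe the tested members and not the whole class. By the study's own rule for an enriched RNA, a RIP to Input ratio above 2, here taken between group means, 21 tested members (60.0%, beside 23.3% of all tested genes) qualified in the YTHDF1 RIP and 19 (54.3%, beside 34.5%) in the YTHDF2 RIP. These counts were favoured by the filter, since 9 of the 35 tested members averaged under 1 FPKM in Input, passed through the RIP libraries and all qualified in both RIP groups. Of the 26 with an Input mean of 1 FPKM or more, 12 (46.2%, beside 16.5% of all genes with such a mean) qualified in the YTHDF1 RIP and 10 (38.5%, beside 27.0%) in the YTHDF2 RIP.

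Box C/D snoRNAs, the sister class that guides 2'-O-methylation of rRNA, had smaller median changes in the same fit. Of 98 Snord rows 33 were tested, and 0 were higher and 1 lower by limma in the YTHDF1 RIP and likewise in the YTHDF2 RIP, with 11 and 5 at an unadjusted p under 0.05 (33.3% and 15.2%, beside 26.7% and 37.5% of all tested genes). The Snora and Scarna members had median changes of 1.09 in the YTHDF1 RIP and 0.61 in the YTHDF2 RIP, against 0.57 and 0.36 for the Snord rows. The RIP to Input ratio exceeded 2 for 15 Snord rows (45.5%) in the YTHDF1 RIP and 13 (39.4%) in the YTHDF2 RIP. Both YTHDF2 RIP libraries lay below both YTHDF1 RIP libraries for 11 Snord rows (33.3%, beside 22.9% of the members and 8.09% of all tested genes). They lay above both for 2 Snord rows (6.06%, beside 8.57% of the members). The difference between the classes was not tested.

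Most members lie inside another gene on the same strand, and the changes of the host transcripts were unlike theirs. Of the 51 members 45 have such a host, a ribosomal protein gene for 10 of them and an Snhg gene for 10, and 24 overlap an exon of the host, where reads cannot be told apart. Both member and host were tested in 25 pairs with 22 hosts. Among these members Snora21, Snora34, Snora61, Snora70 and Snora16a (ENSMUSG00000065097) averaged under 1 FPKM in Input. They were tested only because of their RIP levels, which favoured members above their hosts in the figures that follow. The median change over the pairs was 0.69 for the member and -0.38 for the host in the YTHDF1 RIP, and 0.45 for the member and -0.76 for the host in the YTHDF2 RIP. The member stood above its host in 19 of 25 pairs in the YTHDF1 RIP and 18 of 25 in the YTHDF2 RIP, and the signs of the rounded changes matched in 9 and 12. Snora31, whose YTHDF1 RIP change was slightly negative but rounded to -0.0, was left out of the 9 although its host Tpt1 was at -1.49. Across pairs, which share libraries and in part hosts, the changes had a Pearson r of -0.00951 and a Spearman rho of -0.0266 in the YTHDF1 RIP, with an r of 0.134 and a rho of 0.197 in the YTHDF2 RIP.

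Guides that passed the test illustrate this. Cep295, host of Scarna9, had 0.428 and 0.954 FPKM in the YTHDF1 RIP and 0.634 and 3.93 FPKM in the YTHDF2 RIP, against 2.93 and 1.90 FPKM in Input, and the Scarna9 change exceeded that of its host by 5.22 log2 units in the YTHDF2 RIP. Cct6a, a chaperonin gene and host of Snora15, had 11 and 12.4 FPKM in the YTHDF1 RIP and 9.52 and 6.94 FPKM in the YTHDF2 RIP, against 22.3 and 29.5 FPKM in Input, while Snora15 rose in both. Snora15 overlaps an exon of Cct6a, so reads in the overlap cannot be told apart. Rpl23, the ribosomal protein gene around Snora21, had 30.4 and 34.4 FPKM in the YTHDF1 RIP and 24.1 and 32.5 FPKM in the YTHDF2 RIP, against 77.6 and 65.0 FPKM in Input. Ipo7, around Snora23, had 2.5 and 5.39 FPKM in the YTHDF1 RIP and 2.63 and 4.67 FPKM in the YTHDF2 RIP, against 8.75 and 6.27 FPKM in Input, with log2 changes of -0.83 and -0.89 that did not pass the test, beside the -3.45 and -2.34 of Snora23. Host and guide pointed the same way here, but not by the same amount. In the YTHDF2 RIP 6 of 22 hosts (27.3%, beside 6.66% of all tested genes) were lower by limma (among them Rps12, Rpl32, Rplp2, Tpt1 and Cct6a, with log2 changes of -2.82, -2.56, -2.18, -2.17 and -1.54) and Gm42715, the host of Snora30, was higher (3.13), while in the YTHDF1 RIP 0 hosts passed and 6 had an unadjusted p under 0.05 (27.3%, beside 26.7% of all tested genes). None of the guides in these hosts passed in the YTHDF2 RIP apart from Snora15. Scarna2 has no annotated host on its strand. Kansl2 holds Snora34 and Snora2b. Snora34 passed in the YTHDF2 RIP, and Snora2b had 1.46 and 4.76 FPKM in the YTHDF1 RIP and 0.919 and 4.92 FPKM in the YTHDF2 RIP, against 1.22 and 1.47 FPKM in Input, but the difference between the pair was not tested and Snora2b overlaps a host exon.

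**Figure D4:**
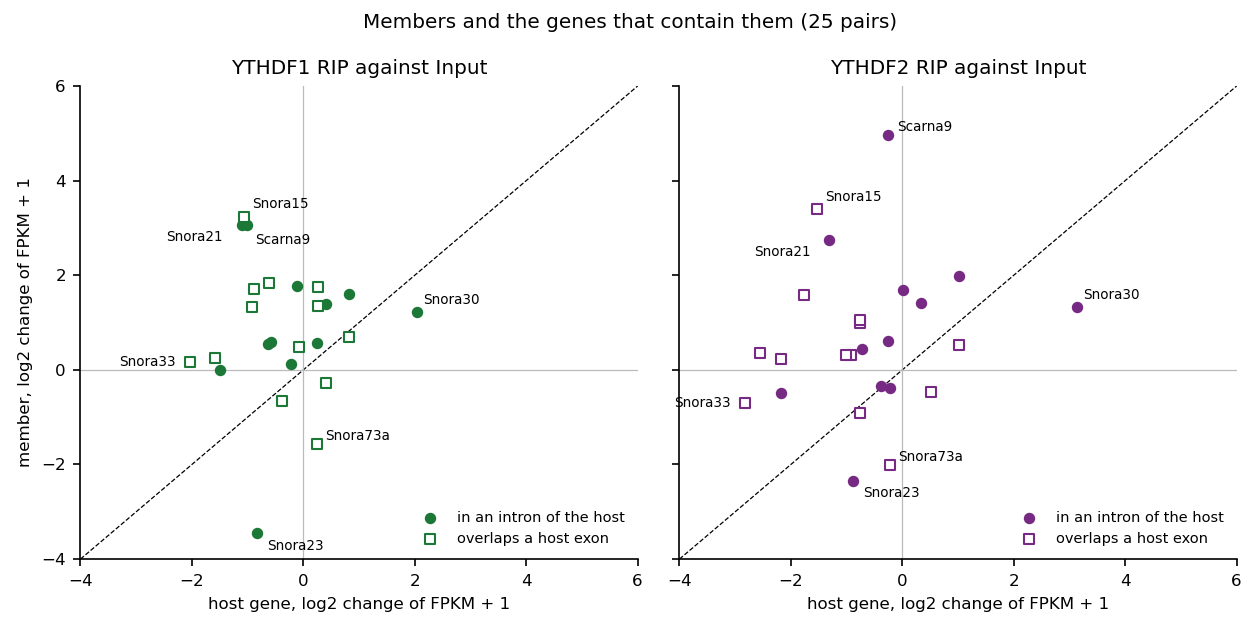
Log2 change of FPKM + 1 against Input of each member (vertical) and of the gene that contains it (horizontal) for the 25 tested pairs, with filled circles for members in an intron, open squares for members that overlap a host exon and a dashed line of equality. Scarna9, Snora15 and Snora21 lie far above the line in both panels, and the members exceed their hosts in 19 pairs in the YTHDF1 RIP and 18 in the YTHDF2 RIP.

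Length and base composition went with little of the variation among members. Across the 35 tested members, all measured in the same 6 libraries, the Spearman rho between log2 change and length was -0.0814 in the YTHDF1 RIP and -0.105 in the YTHDF2 RIP, that with GC content 0.185 and 0.176, and that with mean FPKM, which includes the RIP values themselves, 0.204 and 0.258. By host class the median changes in the YTHDF1 RIP were 1.33 for the 7 members in ribosomal protein genes, 1.27 for the 8 in Snhg genes, 0.69 for the 15 in other genes and 0.98 for the 5 without a host. In the YTHDF2 RIP they were 0.35, 0.80, 0.62 and 0.98. A positive change in the YTHDF1 RIP was found for 7 of 7 members in ribosomal protein genes and 7 of 8 in Snhg genes. It was found for 11 of 15 in other genes and 5 of 5 without a host. In the YTHDF2 RIP these counts were 6, 6, 10 and 5, in the same order. Over all 35 tested members they were 30 in the YTHDF1 RIP and 27 in the YTHDF2 RIP. Members tested only because of their RIP levels, such as Snora21 and Snora70, are among these and favoured the counts.

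The mRNAs for the proteins that build and place these RNAs were examined in the same fit. The list held 25 genes for H/ACA core and assembly factors, Cajal body and SMN complex proteins, pseudouridine synthases, telomerase reverse transcriptase and C/D core proteins, of which 20 were tested. In the YTHDF1 RIP 0 were higher and 0 lower by limma (7 at an unadjusted p under 0.05, or 35.0%, beside 26.7% of all tested genes), and the median change was -0.40. In the YTHDF2 RIP 2 (10%, beside 11.9% of all tested genes) were higher and 2 (10%, beside 6.66%) lower, close to the shares of all genes, with a median of -0.54. Dkc1, the pseudouridine synthase of the H/ACA particle, had 0.849 and 2.30 FPKM in the YTHDF2 RIP, against 7.23 and 7.38 FPKM in Input (log2 change -1.75, adjusted p = 0.025 by limma), and Nop56, a core protein of C/D particles, had 2.18 and 2.95 FPKM in the YTHDF2 RIP, against 6.75 and 8.18 FPKM in Input (log2 change -1.25, adjusted p = 0.0406 by limma). Gemin4, a subunit of the SMN complex, had 7.71 and 5.45 FPKM in the YTHDF2 RIP, against 0.00593 and 1.07 FPKM in Input (log2 change 2.38, adjusted p = 0.0214 by limma), and Shq1, a chaperone of dyskerin, had 1.81 and 2.38 FPKM in the YTHDF2 RIP, against 0.202 and 0.190 FPKM in Input (log2 change 1.37, adjusted p = 0.0255 by limma). All 4 were without overlap between the groups. Gemin4 and Shq1 averaged under 1 FPKM in Input and were tested only because of their RIP levels, which favoured higher calls. The mRNAs of the other H/ACA core proteins did not pass. Gar1 had 3.05 and 6.24 FPKM in the YTHDF2 RIP, against 9.65 and 14.3 FPKM in Input, and Nop10 5.40 and 1.94 FPKM in the YTHDF2 RIP, against 9.97 and 7.14 FPKM in Input. Wrap53, which brings these RNAs to Cajal bodies, and Coil, the coilin of those bodies, changed by 0.59 and 0.08 in the YTHDF2 RIP and did not pass either. Terc, the telomerase RNA, which ends in an H/ACA domain, fell under the filter with 0.951 and 0.846 FPKM in the YTHDF1 RIP and 0.897 and 0.164 FPKM in the YTHDF2 RIP, against 0.371 and 0.179 FPKM in Input.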

How the data were processed

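RIP-seq was measured in 6 libraries in 3 groups of 2 (YTHDF1 RIP, YTHDF2 RIP, Input). The authors deposited 1 FPKM value per gene and library for 52550 genes. Their methods name STAR 2.5 and Cufflinks 2.2.1 on GRCm38, whereas the submitters' processing notes list Bowtie 0.12.2 with mm8 and mm9. Which of these made the table and whether counting used strand are not given in the sources used here. Per the labels an unstranded and a stranded TruSeq kit were named. FPKM divides by the library total, so a class of RNA lost from a RIP raises the values of the others.

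Symbols, biotypes, coordinates, host genes and sequences came from GENCODE release M21 (147 rows had no entry), and near-identical genes from blastn 2.17.0+. Low FPKM values were spaced at steps, but only 33.2% to 48.2% of them lay within 0.1 of a whole step, so whole reads were not taken from them and counts were not tested. The step of YTHDF1 RIP replicate 2 was ambiguous, since its double matched about as well. All 11057 genes that averaged 1 FPKM or more entered 1 limma 3.58.1 fit (R 4.3.3) of log2(FPKM + 1), with a mean per group, 3 residual degrees of freedom and an intensity trend. Tests were 2-sided with Benjamini-Hochberg adjustment over all tested genes and a threshold of 0.05. The fit was tested on simulated data.

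Members and lists were chosen with earlier results of these data known. Named were tested members past the threshold with or without a replicate block, the 10 most abundant, the 5 largest changes in each direction and contrast, all tested Scarna RNAs, the Snora73 and Snora74 RNAs and the 3 members on either side of the filter. Of these, members given by level only carry no fold change. Both RIP contrasts share the Input libraries, so their changes are not independent of each other. Alternatives were another pseudocount, filters, scalings, no trend, 4 libraries only, a replicate block and leaving out each library. The values of 1 host gene are not reported here.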

Additional observations from a re-analysis of the deposited data

How the results depend on the processing

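No member that passed the threshold changed direction under any alternative (0 in all 3 contrasts), but the number past it did change, and the cause was not tested unless stated. What same-numbered libraries share is not stated. Their deviations correlated over all tested genes at -0.142 between YTHDF1 RIP and Input, -0.137 between YTHDF2 RIP and Input and 0.682 between the RIP groups, and over the 35 tested members at 0.438, 0.563 and 0.738, so the pairing is unsettled. With a replicate block 14 members were higher in the YTHDF1 RIP and 15 higher and 2 lower in the YTHDF2 RIP (all genes passing 1432, 3349 and, between the antibodies, 2), 1 listed protein gene was higher and 3 lower in the YTHDF1 RIP and 6 lower in the YTHDF2 RIP, and 6 box C/D RNAs were higher in the YTHDF1 RIP and 2 higher and 3 lower in the YTHDF2 RIP. Without a filter, where far more rows share the adjustment, 0 genes of any kind passed. The median of all members was then 0.52 in the YTHDF1 RIP and 0.32 in the YTHDF2 RIP. With a filter of 5 FPKM 18 members were left, and the medians were 1.37 in the YTHDF2 RIP and 0.01 between the antibodies. Then 1243 genes passed in the YTHDF2 RIP and 0 between the antibodies, and 0 listed protein genes and 0 box C/D RNAs passed in the YTHDF2 RIP. Of the fewer host pairs that this filter left, 6 in either RIP had the member above its host. With a pseudocount of 0.1, Snora21 missed the threshold in the YTHDF1 RIP (adjusted p = 0.0531 by limma), which left 2 members higher there, 8 members were higher in the YTHDF2 RIP (median 1.24), 0 box C/D RNAs were lower and 0 genes passed between the antibodies. Scaling to equal sums moved the median of all genes to 0.44 and 0.71 and called 0 genes in the YTHDF1 RIP. In the YTHDF2 RIP it gave 2130 genes higher and 222 lower (1313 and 736 as reported), 8 members higher and 0 lower (median 0.95), 4 listed protein genes higher and 0 lower, and 1 box C/D RNA higher and 0 lower. Scaling to nuclear coding genes and by median of ratios gave 604 and 793 genes in the YTHDF1 RIP, 1 and 3 listed protein genes lower there and 6 lower in the YTHDF2 RIP under each, 2 box C/D RNAs higher in the YTHDF1 RIP and a median of -0.33 between the antibodies. All genes in the YTHDF2 RIP then split into 1191 higher and 1064 lower, and 978 and 1313, and in the YTHDF1 RIP into 226 and 378, and 212 and 581 (69 and 215 as reported). With the 4 libraries of each comparison alone, 6 members were higher in the YTHDF1 RIP (755 genes, 3 listed protein genes lower, 2 box C/D RNAs higher) and 8 in the YTHDF2 RIP (0 box C/D RNAs lower), and 0 genes passed between the antibodies.

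Leaving out 1 library at a time, members higher ranged from 0 to 7 in the YTHDF1 RIP and 0 to 8 in the YTHDF2 RIP, members lower from 0 to 1 in each, and their medians from 0.78 to 1.63, from 0.51 to 1.18 and, between the antibodies, from -0.34 to -0.08. All genes passing ranged from 0 to 802, 0 to 2141 and 0 to 1. Listed protein genes lower ranged from 0 to 3 in each RIP and higher from 0 to 2 in the YTHDF2 RIP. Box C/D RNAs higher ranged from 0 to 2 in the YTHDF1 RIP and 0 to 3 in the YTHDF2 RIP, and lower from 0 to 1. A lone library was then assumed to vary like the other groups. The direction of members that did not pass is loose. Up to 13 of 35 changed sign when 1 library was left out. Snora31 in the YTHDF1 RIP turned to 0.05 with the lower pseudocount and to 0.49 and 0.04 with scaling to equal sums and to nuclear coding genes, and ranged from -1.57 to 1.57 without 1 library. In the YTHDF2 RIP it turned to 0.09 with equal sums and ranged from -2.05 to 1.09. Scarna10 in the YTHDF1 RIP turned to 0.30 with equal sums and ranged from -1.06 to 0.52. Snora81 ranged from -3.14 to 1.82 and from -3.40 to 1.56, and between the antibodies Scarna13 ranged from -0.30 to 4.92 and Snora74a from -0.80 to 1.71. Alternatives for the host pairs, the box C/D RNAs and the ratio above 2 were chosen after seeing the data. Without 1 library, members above their host ranged from 16 to 20 and from 17 to 20 of 25 pairs, and members with a ratio above 2 from 18 to 28 in the YTHDF1 RIP and 16 to 23 in the YTHDF2 RIP. With the filter on the Input mean in place of the mean of all libraries, 12 and 10 members had such a ratio. Depth limits the lowest values, since 74 of 210 came from under 10 fragments by the spacing of low values.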
